A study of Homo sapiens with 10 samples.

Results

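Day 38 of the human thyroid organoid protocol was compared with the sampled days on either side of it, day 31 and day 45, to ask which genes were expressed differently after about 1 week of hrTSH and dexamethasone, ahead of the medium with SB431542. The sources used here differ by a day on when SB431542 was first added, so whether the day 38 cells had a short exposure to it is unsure. The comparison used 6 of the 10 bulk RNA-seq libraries of the series, 2 at each of days 31, 38 and 45, while the 4 libraries of days 16 and 23 entered the fit and served as context. Of 28265 gene symbols, 21014 had at least 5 counts in at least 2 of the 10 libraries and were tested.

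The cells came from ESIBIe003-A-6, a human embryonic stem cell line made by selecting clones, in which GFP replaces part of one *NKX2-1* allele and doxycycline induces transgenes for *NKX2-1* and *PAX8*. Cells of every group had been through Activin A and doxycycline, and the GFP-positive cells were sorted from organoids pooled from several wells. Day 31 libraries are labelled cAMP, although the study's schedule ends the cAMP analogue at day 30. Those of days 16 and 23 are labelled cAMP too. The schedule starts the cAMP analogue at day 16, after basal medium, so whether day 16 cells had received any is unsure. Day 38 libraries are labelled TSH and DEX (recombinant human thyrotropin and dexamethasone, a synthetic glucocorticoid). Day 45 libraries are labelled TSH and SB, SB431542 being an inhibitor of the TGFβ receptor kinase, and the schedule keeps dexamethasone in that medium. Age of the organoids and medium change together, so the 2 cannot be told apart, and each neighbour differs from day 38 in other components. The study's methods call the 2 libraries of a day biological replicates, each pooled from several wells. No source used here says whether they came from separate differentiations, and p-values measure the spread between these libraries.

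The total of counts per library was 10333933 and 9121301 for day 38. Day 31 had 9122044 and 8065086, and day 45 had 7247268 and 9592839. The day 38 pair agreed best of these days, with a correlation of log2 CPM across genes of 0.97 against 0.94 within day 31 and within day 45. *RN7SK*, a small nuclear RNA, took 8.17% and 6.76% of day 38 counts, against 2.92% and 3.86% for day 31 and 7.04% and 5.14% for day 45, and the trimmed-mean (TMM) scaling factors of day 38 were 0.896 and 0.942 against 1.07 in both day 31 libraries. The labelled identity was checked first. *PAX8*, a thyroid transcription factor, was at 500 and 527 CPM (read counts divided by the TMM-scaled library size and multiplied by 1e6) at day 38, between 477 and 536 CPM in the 4 neighbouring libraries, with a log2 difference of 0.01 from their mean (standard error 0.11, edgeR adjusted p = 0.989). *NKX2-1*, the sorted marker, was at 154 and 133 CPM, against 151 and 157 CPM at day 31 and 58.1 and 66.7 CPM at day 45. The thyroglobulin gene *TG* was at 5550 and 4870 CPM, and the glucocorticoid target *FKBP5* was at 142 and 157 CPM against 34.1 and 39.8 CPM at day 31. In bulk samples such as these, fewer cells of a type and less RNA per cell cannot be told apart.

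Glycolysis turns glucose into pyruvate, which lactate dehydrogenase can reduce to lactate. Its glucose transporters and enzymes are textbook targets of the hypoxia-inducible factors, together with *VEGFA* and genes that divert pyruvate from the mitochondria or clear mitochondria. Cytosolic chaperones of the HSP70, HSP90 and HSP110 families fold proteins and are the classical targets of heat shock factor.

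Against the mean of its neighbours, day 38 was higher in 1368 genes (6.51% of those tested) and lower in 841 (4%; edgeR's quasi-likelihood test, Benjamini-Hochberg adjusted p under 0.05). A mean of neighbours can differ from day 38 because a gene stepped up or down once and stayed there. *TG*, which encodes the hormone precursor, is such a case: it was at 5550 and 4870 CPM at day 38, 7960 and 7520 CPM at day 45, and 200 and 211 CPM at day 31. A stricter call was therefore made for genes that differed from day 31 and from day 45 in the same direction, taking the larger of the 2 edgeR p-values and adjusting it over all genes. It found 167 genes above both neighbours (0.795% of those tested) and 92 below both (0.438%). Leaving out 1 library gave 87 to 123 above both and 30 to 73 below both, the fewest without day 38 replicate 1 and day 38 replicate 2, and 565 to 1214 higher and 306 to 725 lower than the mean. Library size alone gave 109 above both and 167 below both. The 2 differences share the day 38 libraries. Taken singly, day 38 was higher than day 31 in 8.8% of genes and lower in 6.23%, and higher than day 45 in 6.35% and lower in 4.85%. Both day 38 libraries lay above all 4 neighbouring libraries in 12.8% of genes and below all 4 in 9.17%. The remaining 1201 higher and 749 lower genes did not pass the stricter call, 190 and 95 of them with fitted differences of opposite sign from the 2 neighbours.

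The share of calls in each direction depended on scaling. Of the genes called against the mean, 61.9% were higher with TMM factors, 52.6% with DESeq2's size factors, 52.2% with upper-quartile factors and 38.9% with library size alone. Library size alone moved the median log2 difference of all genes from 0.05 to −0.08 against the mean of the neighbours and from 0 to −0.20 against day 31.

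The 167 genes above both had a median log2 difference of 1.23 from the mean of the neighbours, and 78 of them were at least 1 log2 unit above each. In 141 of the 167, day 38 was also the highest of the 5 sampled days, while day 16 was highest in 25 and day 23 in 1. Of the 92 genes below both, 54 were at least 1 log2 unit below each, and day 38 was the lowest of the 5 days in 70 and day 16 in 21. Between day 31 and day 45 themselves, 49 of the 167 were higher at day 45, 17 were lower and 101 were not called, against 22.5% called in either direction among all genes tested.

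**Figure D1:**
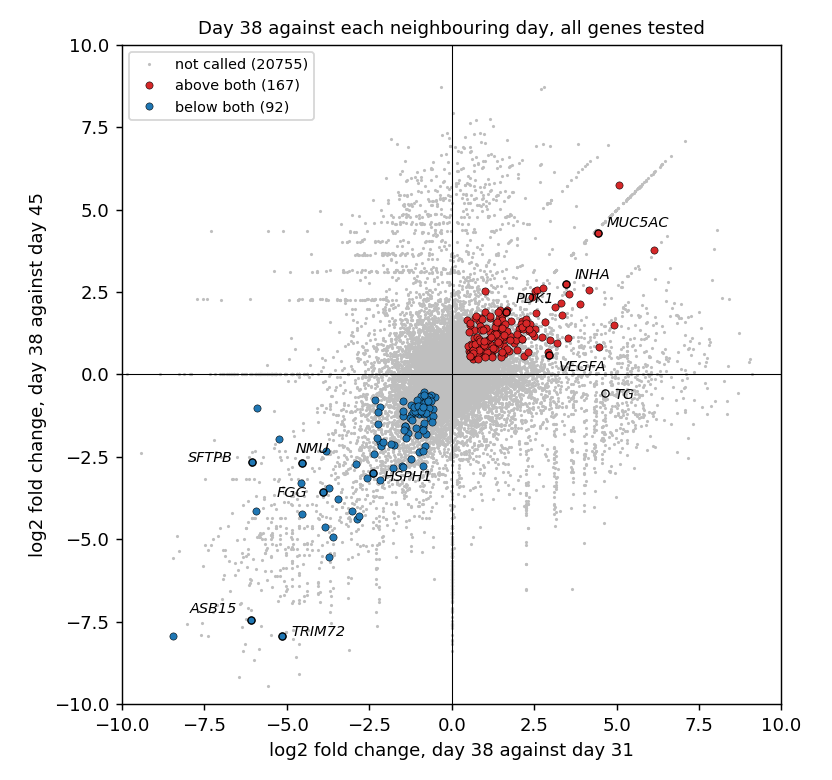
Each point is a gene tested, placed by its log2 fold change at day 38 against day 31 (horizontal) and against day 45 (vertical). Red points are the 167 genes above both neighbours, blue points the 92 below both and grey points the rest. TG lies far to the right but a little below 0 on the vertical axis, whereas MUC5AC, INHA and PDK1 lie above both neighbours and SFTPB, HSPH1 and ASB15 below both. The axes end at 10 log2 units, which leaves 2 genes outside.

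Many genes of glucose uptake, glycolysis and the hypoxia response were higher at day 38 than at either neighbour. The glycolysis and hypoxia list was chosen with earlier results of these data known. Of its 15 genes, 12 were higher than the mean of the neighbours (6.51% among all genes tested), 10 were above both (0.795%), and none was lower. The median log2 difference of the list from that mean was 1.57, against 0.05 for all genes tested. Summed over the list, the level was 8670 and 7800 CPM at day 38, 2050 and 2070 CPM at day 31, and 4130 and 3980 CPM at day 45. *SLC2A1* was the most abundant member by CPM at day 38, whereas *ENO1* exceeded it at day 31. At day 45 *VEGFA*, *LDHA* and *ENO1* were among the members that exceeded it.

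*SLC2A1*, which encodes the glucose transporter GLUT1, was at 1780 and 1590 CPM at day 38, 367 and 394 CPM at day 31, and 667 and 586 CPM at day 45. Both day 38 libraries stood far above all 4 neighbours, by 4.43-fold over day 31 and 2.69-fold over day 45 (edgeR both-neighbour adjusted p = 2.1e-08). *HK2*, the hexokinase that traps glucose in the cell, was at 190 and 174 CPM at day 38, 26.8 and 37.8 CPM at day 31, and 78.7 and 84.1 CPM at day 45. The genes of 2 enzymes that set the level of fructose 2,6-bisphosphate, *PFKFB3* and *PFKFB4*, were 3.03-fold and 5.13-fold over day 31 and 2.89-fold and 2.61-fold over day 45.

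In the lower part of the pathway, *PGK1*, *ENO1* and *LDHA* were above both neighbours. *PGK1*, which encodes a kinase that makes ATP within glycolysis, was at 926 and 839 CPM at day 38, 241 and 216 CPM at day 31, and 432 and 419 CPM at day 45. *ENO1*, an enolase, was at 1400 and 1140 CPM at day 38, against 456 and 493 CPM at day 31 and 722 and 612 CPM at day 45. *LDHA*, the lactate dehydrogenase subunit, was at 1610 and 1450 CPM, against 385 and 353 CPM before and 678 and 705 CPM after. None of these 3 genes overlapped between day 38 and its neighbours, as was so for all 167 genes above both. *LDHA* was 2.05 log2 units above day 31 (standard error 0.12) and 1.15 above day 45 (standard error 0.11, edgeR both-neighbour adjusted p = 2.1e-08).

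*PDK1*, a kinase that holds pyruvate back from the mitochondria, was at 299 and 316 CPM at day 38. It was at 95.9 and 98.6 CPM at day 31 and 86.6 and 79.8 CPM at day 45, so its level after the peak was close to that before it. *BNIP3*, a receptor for mitochondrial removal, was at 353 and 326 CPM at day 38, against 117 and 110 CPM at day 31 and 188 and 187 CPM at day 45. *VEGFA*, the angiogenic growth factor, was at 1370 and 1300 CPM at day 38, up 7.81-fold from 173 and 169 CPM at day 31, and stayed high at day 45 with 867 and 920 CPM. Its difference from day 45 was 0.58 log2 units (standard error 0.11, edgeR both-neighbour adjusted p = 0.0022). That call was lost without day 38 replicate 1 (adjusted p = 0.0806) and without day 45 replicate 1 (adjusted p = 0.0639).

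Of the other list members, *NDRG1* and *EGLN3* were higher than the mean of the neighbours but were not above both. *EGLN3*, an oxygen-sensing prolyl hydroxylase, was at 120 and 95.5 CPM at day 38, 10.1 and 16.9 CPM at day 31, and 59.5 and 61.7 CPM at day 45 (edgeR both-neighbour adjusted p = 0.0775). *CA9*, *ADM* and *ANKRD37* were not called. *CA9*, a carbonic anhydrase often used as a marker of hypoxia, was at 4.53 and 4.77 CPM at day 38, inside the range of 2.73 to 6.97 CPM at day 45. Among the earlier days, 14 of the 15 genes, all but *NDRG1*, had a higher mean at day 16 than at day 23. *LDHA* averaged 717 CPM at day 16 and 201 CPM at day 23, and *PDK1* averaged 225 and 58.6 CPM.

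**Figure D2:**
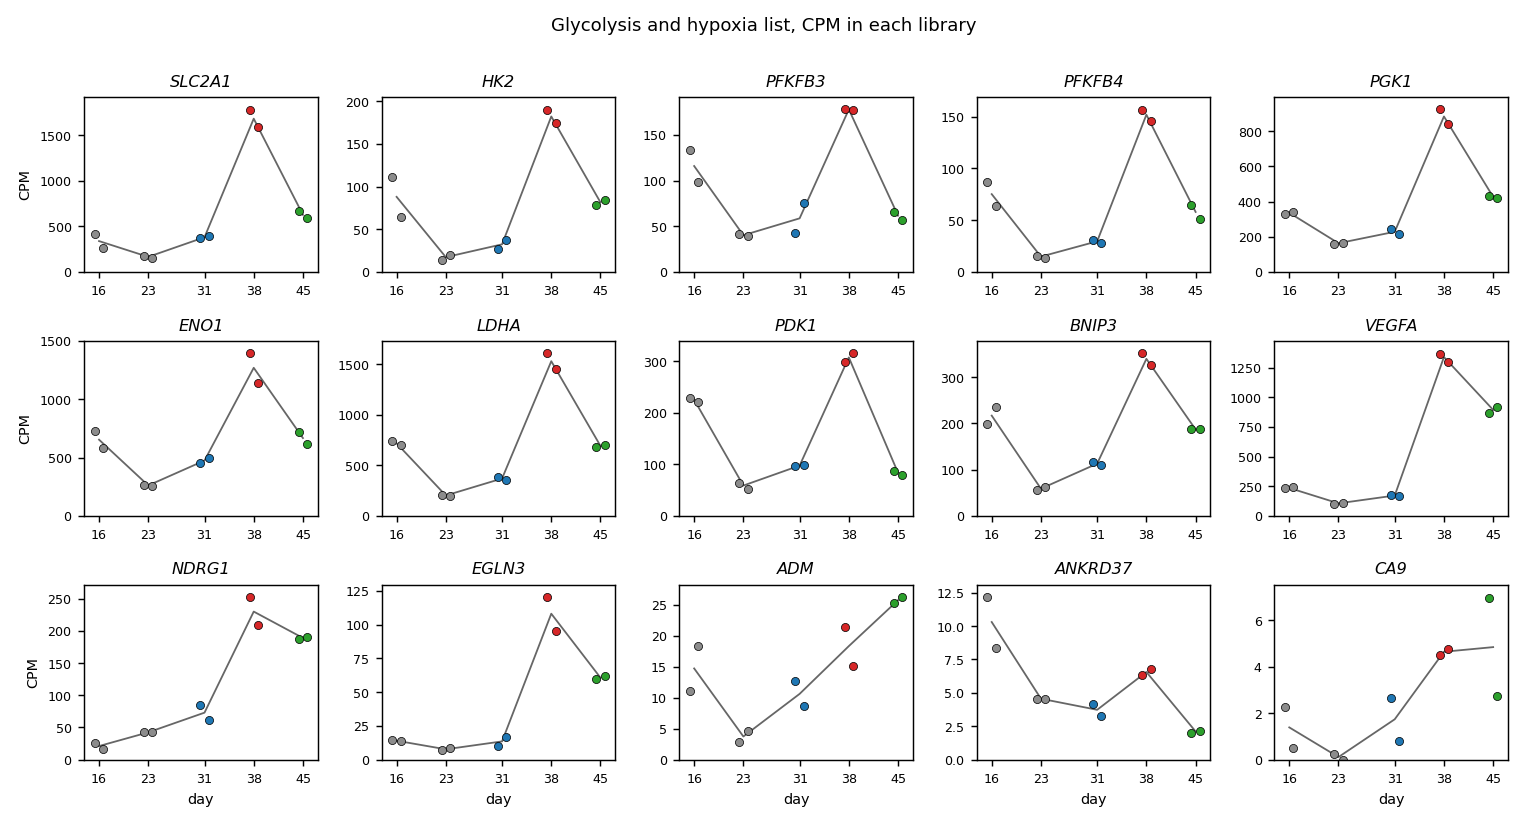
CPM of the 15 genes of the glycolysis and hypoxia list against day of differentiation, with 1 point per library and a line through the means of the 2 libraries of each day. The axes are linear and start at 0. Grey points are days 16 and 23, blue day 31, red day 38 and green day 45. In 13 of the 15 panels both red points lie above all blue and green points, and ADM and CA9 are the exceptions. Among all genes tested this held for 12.8%.

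The core enzymes of glycolysis, a list of 16 genes assembled after the first results were seen, gave 12 members higher than the mean of the neighbours (6.51% among all genes tested). Of the 16, 8 were above both (0.795% among all genes): *HK2*, *GPI*, *TPI1*, *PGAM1*, *PGK1*, *ENO1*, *PKM* and *LDHA*. Those not in the first list were *GPI*, *TPI1*, *PGAM1* and *PKM*, which encode an isomerase at the head of the pathway, the triose isomerase, a phosphoglycerate mutase and the pyruvate kinase. *GAPDH* is a different case, at 2430 and 2010 CPM at day 38 but still 2020 and 1830 CPM at day 45, after 566 and 557 CPM at day 31. The enzymes sit closer to the threshold than the first list, and the count above both was 4 rather than 8 without day 38 replicate 1, and 5 without day 31 replicate 1 or day 45 replicate 2, and 4 were at least 1 log2 unit above each neighbour. Without day 38 replicate 1, *GPI* (adjusted p = 0.635), *PKM* (0.422), *TPI1* (0.0805) and *PGAM1* (0.0611) lost the call.

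*DDIT4* and *HILPDA*, named by the rule for the largest steps, were above both neighbours, as were 4 genes picked after their values were seen. *DDIT4*, an inhibitor of mTORC1, was at 113 and 93.2 CPM at day 38, 9.62 and 7.79 CPM at day 31, and 25.4 and 12.8 CPM at day 45. *HILPDA*, a lipid droplet protein, was 8.72-fold over day 31 and 4.17-fold over day 45. *BHLHE40*, a transcriptional repressor, was at 267 and 258 CPM, against 98.8 and 93.9 CPM before and 82.4 and 77.8 CPM after. *EGLN1*, the main oxygen sensor among the prolyl hydroxylases, and the collagen-modifying enzymes *PLOD2* and *P4HA1* were 2.92-fold, 3.41-fold and 4.96-fold over day 31 and 2.19-fold, 2.05-fold and 1.59-fold over day 45. Without day 38 replicate 2 or day 45 replicate 1 the call of *HILPDA* was lost (edgeR adjusted p = 0.067 and 0.0701).

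The core hypoxia-response motif ACGTG, chosen after these values were seen, was searched on both strands in RefSeq promoters (250 bases before to 50 after each start, GRCh38.p14), where it was found in 24.3% of the 14838 promoters of genes tested, 27.0% of 137 promoters of genes above both and 18.3% of 71 of genes below both. It was present in 5 of the 13 promoters matched for members of the glycolysis and hypoxia list and the glycolytic enzymes that were above both (38.5%): *LDHA*, *PGK1*, *HK2*, *BNIP3* and *GPI*. The stretches below, read on the gene's strand, show matches upstream of the start in capitals (CACGT is the same motif on the other strand, and the 2 overlap in CACGTG). They lie at chr11:18394464-18394492, chrX:78104034-78104062 and chr2:74834067-74834095, all on the plus strand.
LDHA: cagcccgactcaCACGTgggttcccgcac
PGK1: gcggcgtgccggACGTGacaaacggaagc
HK2: aatgggcgtgcgCACGTcactgatccgga
A match of 5 letters is a description and not a binding site. Motifs of 5 other transcription factors were also counted. The CREB motif TGACGTCA was in 2.92% of promoters of genes above both, 4.23% of those below both and 2.68% of all, and the AP-1 motif TGANTCA in 6.57%, 7.04% and 5.75%. STAT (TTCNNNGAA) was in 8.03%, 4.23% and 6.73%, NF-kB (GGANTTTCC) in 0%, 2.82% and 1.68%, and the full glucocorticoid receptor palindrome was found in none of the 14838.

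Some cytosolic chaperones were lower at day 38 than at either neighbour. *HSPH1*, an HSP110-family chaperone, was at 82.5 and 85.3 CPM at day 38, 456 and 417 CPM at day 31, and 630 and 714 CPM at day 45. Day 38 was 5.2-fold below day 31 and 8.01-fold below day 45 (log2 difference from day 31 −2.38, standard error 0.13, edgeR both-neighbour adjusted p = 6.7e-15), and also below the day 16 mean of 206 CPM and the day 23 mean of 404 CPM. A list of 20 cytosolic chaperones and co-chaperones was assembled after this gene was seen and includes it. In that list 13 were lower than the mean of the neighbours, *HSPH1* among them, and none was higher. Among all genes tested 4% were lower and 6.51% higher. The median log2 difference of the list was −0.62, with medians of −0.27 against day 31 and −1.17 against day 45. Without day 38 replicate 2 the count lower than the mean was 7. The list summed to 3440 and 3290 CPM at day 38, below 4800 and 4480 CPM at day 31 and 6810 and 7370 CPM at day 45 but close to 3070 and 3330 CPM at day 16. *HSPH1*, *DNAJA1*, *HSPA8* and *AHSA1* were below both neighbours, beside 0.438% of all genes tested.

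*DNAJA1*, an HSP40 co-chaperone, was at 166 and 162 CPM at day 38, 304 and 271 CPM at day 31, and 688 and 792 CPM at day 45. *HSPA8*, the constitutive HSP70, was at 438 and 386 CPM, against 641 and 663 CPM before and 996 and 1050 CPM after. *AHSA1*, which activates the HSP90 ATPase, was at 33.1 and 27.1 CPM, against 65.5 and 53.4 CPM before and 61.5 and 76.4 CPM after. The dip in *DNAJA1* and *HSPA8* was deeper against day 45 than against day 31, and *DNAJA1* and *HSPA8* were themselves higher on day 45 than on day 31 (adjusted p = 2.7e-10 and 3.2e-05 by edgeR). With DESeq2, 7 of the 20 were below both. Of the 4 in the edgeR fit, 1 was at least 1 log2 unit below each neighbour. Without day 38 replicate 2 the count was 2, as *HSPA8* (edgeR adjusted p = 0.0537) and *AHSA1* (0.353) lost the call, and *AHSA1* also without day 31 replicate 1 (0.235). The HSP90 gene *HSP90AA1* was lower than the mean, at 720 and 708 CPM against 975 and 882 CPM and 1500 and 1700 CPM, but did not pass the stricter call (edgeR both-neighbour adjusted p = 0.0966).

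A heat shock element of 3 alternating GAA and TTC units, searched on both strands and also chosen after these values were seen, was found in 0.398% of all promoters and in 2 of the 4 chaperone promoters. One match in the *HSPA8* promoter, at chr11:123062342-123062378 on the minus strand (GRCh38.p14), is in capitals.
HSPA8: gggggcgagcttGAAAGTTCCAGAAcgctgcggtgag
Chaperones of the endoplasmic reticulum gave no such calls. Of 14 genes of the unfolded protein response, 8 were higher than the mean of the neighbours (6.51% among all genes tested) and none was lower. Among them 1, *PDIA4*, was above both (0.795%). The count of 8 was 2 without day 38 replicate 1, 5 without day 38 replicate 2 or day 45 replicate 2, and 4 with library size alone. *HSPA5*, the reticulum's HSP70, was at 870 and 799 CPM at day 38, 315 and 290 CPM at day 31, and 943 and 1000 CPM at day 45. The *PDIA4* call was lost when any of 4 single libraries was left out, and its adjusted p reached 0.594 without day 38 replicate 1.

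The fibrinogen genes *FGB* and *FGG*, neighbours on chromosome 4, which encode secreted clotting proteins made by the liver, were below both neighbours. *FGB* was at 6.8 and 4.19 CPM at day 38, 69.2 and 52.6 CPM at day 31, and 73.4 and 76.9 CPM at day 45 (edgeR both-neighbour adjusted p = 6e-08). *FGG* was at 3.78 and 0.582 CPM, against 33.1 and 32.8 CPM before and 28.3 and 24.3 CPM after. *FGA*, the third chain, was at 6.26 and 3.72 CPM, against 14.6 and 15.9 CPM and 23.2 and 9.72 CPM, and was not called. In the acute phase and complement list, 3 of 13 members tested were lower and 1 was higher, *CP*, beside 4% lower and 6.51% higher among all genes tested. Of 10 liver markers, 4 were lower than the mean (*AFP*, *APOA2*, *APOB* and *TTR*) and none was higher, but without day 38 replicate 2 none of the 10 was called, and without day 45 replicate 2 the count was 1. The list summed to 386 and 189 CPM at day 38, 350 and 326 CPM at day 31, and 612 and 585 CPM at day 45, with *SERPINA1* the most abundant by CPM and *AHSG* at 0 in both day 38 libraries. The *CP* call was lost in 5 settings, with library size alone among them (adjusted p = 0.0953). The part of liver-type cells in the fibrinogen result was not tested.

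*SFTPB*, surfactant protein B, fell from 499 and 502 CPM at day 31 to 6.59 and 8.61 CPM at day 38, 65.8-fold lower, and was at 46.2 and 50.2 CPM at day 45. Of the 9 distal lung markers tested, *SFTPB* and *LAMP3* were lower than the mean and none was higher; the list summed to 640 and 649 CPM at day 31, 140 and 139 CPM at day 38 and 162 and 172 CPM at day 45, with no marker at 0. At day 38, *ABCA3*, an ATP-driven lipid transporter, made up 122 and 118 CPM. *NMU*, a neuropeptide, was at 2.48 and 1.98 CPM, against 53.7 and 49.9 CPM before and 22.2 and 7.42 CPM after.

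The deepest dips were in genes of low level. *ASB15*, a SOCS-box protein known from muscle, had 2 counts in all at day 38, 159 at day 31 and 354 at day 45, ratios of 77.3 (95% interval 21.0 to 644) and 197 (54.1 to 1630) that cover counting error only. *TRIM72*, a membrane repair protein of muscle, had 2 counts at day 38, 83 at day 31 and 481 at day 45. *CLCA1*, *CD14* and *CGA* had no counts at day 38. With a floor of 3 counts over the group, *CLCA1*, a secreted goblet cell protein, was at least 127-fold higher at day 45 than at day 38 but at least 3.39-fold at day 31, where it had 11 counts, *CD14*, a monocyte receptor, at least 14.4-fold higher at day 31 and 21.2-fold at day 45, and *CGA*, the α chain of the glycoprotein hormones, at least 26.7-fold higher at day 31 and 3.46-fold at day 45, where it had 9 counts. These 3 were called against the mean of the neighbours and did not pass the stricter call. *CLCA1* lost its call without day 31 replicate 1 (edgeR adjusted p = 0.0847), and *CD14* and *CGA* lost theirs without either day 38 library (up to 0.127 and 0.204).

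Other genes named by the rule for dips were *BACH1-IT2*, *IL17REL*, *LOC102723704*, *CYP1A1*, *LAG3*, *HIPK4*, *CELF6* and *LOC101929340*. *CYP1A1*, a cytochrome induced through the aryl hydrocarbon receptor, was at 2.48 and 1.16 CPM at day 38, against 13.5 and 13.4 CPM at day 31 and 43.5 and 34.3 CPM at day 45. Its call was lost under DESeq2 (adjusted p = 0.28) and without day 31 replicate 1, day 31 replicate 2 or day 38 replicate 2 (0.0761, 0.0711 and 0.209). The other 7 each lost the call without at least 1 library of day 38, with adjusted p between 0.148 and 0.618 at most. *BACH1-IT2* lies inside *BACH1* on the same strand and cannot be told apart from it.

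The loci of the microRNAs miR-221 and miR-222, chosen after their values were seen, were below both neighbours. Reads counted there come from total RNA and do not measure the mature molecules. *MIR221* (chrX:45746157-45746266, minus strand, GRCh38) was at 8.85 and 8.15 CPM at day 38, 22.6 and 36.5 CPM at day 31, and 54.6 and 67.7 CPM at day 45 (edgeR both-neighbour adjusted p = 0.000378). *MIR222* was at 3.13 and 1.98 CPM, against 16.3 and 7.1 CPM and 16.5 and 30.6 CPM (edgeR both-neighbour adjusted p = 0.0197), a call lost when any of 4 single libraries was left out, with adjusted p up to 0.613 without day 31 replicate 1. The 2 mature 3p sequences from RefSeq (GRCh38.p14) share the seed at bases 2 to 8, in capitals.
hsa-miR-221-3p: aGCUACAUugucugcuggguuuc
hsa-miR-222-3p: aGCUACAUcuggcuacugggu

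The genes with the largest steps above both neighbours included a mucin, a hormone subunit, an ion channel subunit and matrix proteins. *MUC5AC*, a gel-forming mucin, was at 29.7 and 21.9 CPM at day 38, 1.53 and 0.814 CPM at day 31, and 0.435 and 2.07 CPM at day 45. It was 22.0-fold over day 31 and 20.5-fold over day 45 (edgeR both-neighbour adjusted p = 0.000379), and the call was lost without day 38 replicate 1 (adjusted p = 0.11). Of the 9 goblet cell markers, *MUC5AC* was higher, *AGR2* was lower and the other 7 were not called. The median log2 difference of the list, *MUC5AC* included, was 1.84 against day 31 and −1.48 against day 45. *AGR2* was the most abundant member by CPM. The list summed to 101 and 72.5 CPM at day 38, below 167 and 146 CPM at day 31 and 199 and 163 CPM at day 45, with *BPIFB1* at 0 in both day 38 libraries. *AGR2* was below both, a call lost in 5 settings (adjusted p up to 0.763).

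*INHA*, the inhibin α chain, was at 50.9 and 60.9 CPM at day 38, 5.42 and 4.65 CPM at day 31, and 9.43 and 7.32 CPM at day 45. *SCNN1G*, a subunit of the epithelial sodium channel, was at 86.7 and 70.8 CPM, against 11.9 and 11.4 CPM before and 12.9 and 12.8 CPM after. *SPP1*, osteopontin, was at 60.2 and 68.7 CPM, against 8.19 and 4.77 CPM and 13.8 and 14.7 CPM. *IGFBP2*, which binds insulin-like growth factors, was at 428 and 374 CPM, against 24.1 and 30 CPM and 102 and 81.3 CPM (edgeR both-neighbour adjusted p = 3.3e-10). The rule that named these 4 genes required day 38 libraries above every neighbouring library and took the largest steps. The call of each held in every setting tried.

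*TNC*, the matrix protein tenascin C, was at 173 CPM in both day 38 libraries, 20.3 and 43.2 CPM at day 31, and 26.4 and 41.5 CPM at day 45. edgeR called it (both-neighbour adjusted p = 5.8e-05) and DESeq2 did not (adjusted p = 0.322). Other members named by the rule were *EPHB1*, *BVES*, *RAPGEF4*, *SLITRK6*, *IGLON5* and the non-coding genes *LINC02649* and *LINC02656*, which overlap each other on chromosome 10 and cannot be told apart. The calls of *BVES* and *SLITRK6* were lost without any of 5 single libraries (adjusted p up to 0.445 and 0.608), and that of *IGLON5* without day 31 replicate 1 or day 38 replicate 1 (up to 0.204), and that of *LINC02656* without day 38 replicate 1, day 38 replicate 2 or day 45 replicate 2 (up to 0.174). Ranked by the difference from the mean of the neighbours, the rule also named *NPPC* (DESeq2 adjusted p = 0.0521), *TMEM178B* and *FSTL4*. *EPHB1*, an ephrin receptor, was at 25.1 and 23.7 CPM at day 38 and at most 5.47 CPM in the 4 neighbouring libraries; without day 31 replicate 1 its adjusted p was 0.0805. *RAPGEF4*, which encodes EPAC2, a cAMP-activated exchange factor, was at 20.9 and 24.7 CPM against 4.5 and 3.26 CPM and 7.98 and 4.69 CPM; without any 1 of the 6 libraries its call was lost, with adjusted p up to 0.62.

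The next genes were chosen after their values were seen. *KIT*, the stem cell factor receptor, was at 159 and 135 CPM at day 38, 37.5 and 33.3 CPM at day 31, and 56.3 and 56.8 CPM at day 45. The semaphorins *SEMA3C* and *SEMA3D* were at 183 and 170 CPM and at 96.2 and 111 CPM, 2.24-fold and 2.86-fold over day 31 and 3.37-fold and 2.66-fold over day 45. *IGFBP5* was at 888 and 837 CPM, against 356 and 331 CPM and 404 and 387 CPM. The matrix gene *COL6A3*, a collagen VI chain, was at 462 and 511 CPM, 7.81-fold over day 31 and 2.07-fold over day 45. Fibroblast markers were called on both sides: of 10 tested, *COL1A1*, *COL1A2* and *COL3A1* were higher than the mean, *LUM* and *POSTN* were lower, and *LUM* was below both, although not without day 38 replicate 2 (edgeR adjusted p = 0.153). *COL3A1* was not called by DESeq2 (adjusted p = 0.104), nor *POSTN* without day 31 replicate 2 or day 38 replicate 2 (up to 0.364). That list summed to 4550 and 4740 CPM at day 38, 1920 and 2250 CPM at day 31, and 4780 and 3870 CPM at day 45, with *COL3A1* the most abundant by CPM and no marker at 0. The part of such cells in the matrix genes was not tested.

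Targets of glucocorticoid, cAMP and TGFβ signalling each gave 1 member on the same side of both neighbours, of 14, 13 and 10 tested, beside 0.795% above both and 0.438% below both among all genes. Of 14 glucocorticoid targets, *FKBP5* and *TSC22D3* were higher than the mean of the neighbours and 4 were lower (*CEBPD*, *ERRFI1*, *TFCP2L1* and *PDK4*), and none was above both. Without either day 38 library the count lower was 1, and without day 31 replicate 1, day 31 replicate 2 or day 45 replicate 1 it was 2. *PDK4*, which like *PDK1* inhibits pyruvate dehydrogenase and is a known glucocorticoid target, was below both, at 45.2 and 44.8 CPM against 100 and 96.8 CPM before and 96.5 and 81.0 CPM after (edgeR both-neighbour adjusted p = 0.000456). The 2 kinases thus stood on opposite sides of their neighbours. Of 13 cAMP and CREB targets tested, 3 were higher and 4 lower (2 and 2 without either day 38 library), and *NR4A1*, an orphan nuclear receptor, was below both, at 179 and 161 CPM against 276 and 271 CPM and 378 and 307 CPM; leaving out any 1 library of days 31 or 38 lost that call (adjusted p up to 0.337).

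Of 10 TGFβ targets, 3 were higher than the mean and *CCN2*, a matricellular protein, was above both. It was at 483 and 424 CPM at day 38, 260 and 247 CPM at day 31, and 235 and 291 CPM at day 45. *FN1* and *SMAD7*, 2 other targets on the list, were not called, with *FN1* at 4230 and 3900 CPM between 6530 and 7060 CPM at day 31 and 2690 and 2740 CPM at day 45. *BMP2*, a TGFβ-family ligand chosen after its values were seen, was at 31.7 and 31.5 CPM at day 38, against 170 and 147 CPM before and 59.1 and 49.7 CPM after. Its call was lost without day 38 replicate 1, day 38 replicate 2 or day 45 replicate 1 (adjusted p = 0.171, 0.214 and 0.212).

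Thyroid hormone synthesis genes were higher than the mean of the neighbours in 9 of 18 members and lower in 1, *SLC16A10*, but none was above or below both. Among all genes tested 6.51% were higher and 4% lower. The *SLC16A10* call was lost without day 31 replicate 1, day 38 replicate 2 or day 45 replicate 2 (edgeR adjusted p = 0.146, 0.57 and 0.137). *SLC26A7*, an anion transporter needed for iodide handling, was at 174 and 168 CPM at day 38, 17.2 and 21.4 CPM at day 31, and 91.4 and 131 CPM at day 45. Its difference from day 45 was 0.62 (standard error 0.20, edgeR both-neighbour adjusted p = 0.225). *TSHR*, the thyrotropin receptor, was at 150 and 151 CPM against 77.7 and 77.2 CPM and 120 and 121 CPM, and the second of these differences was not called (edgeR adjusted p = 0.324 against day 45). Its call against the mean was lost without either day 38 library (up to 0.087), and that of *TSC22D3*, a glucocorticoid-induced leucine zipper protein, without day 38 replicate 1 (0.215). Of the transcription factors, *FOXE1* and *NKX2-1* were higher than the mean, with *NKX2-1* close to its day 31 level and *FOXE1* at 382 and 364 CPM against 273 and 303 CPM at day 31 and 204 and 218 CPM at day 45. The *NKX2-1* call was lost without day 38 replicate 1 (edgeR adjusted p = 0.194).

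The remaining lists lay at the shares plotted for each list, beside a background of 6.51% higher and 4% lower. Of 18 cell cycle genes, *BUB1* and *TOP2A* were higher and *TOP2A* was above both, a call lost in 9 of the 13 alternative settings, including DESeq2 (adjusted p = 0.0702). Of 15 cholesterol synthesis genes 1 was lower (3 with library size alone and 2 with only the 6 libraries of days 31, 38 and 45). Of 15 interferon-stimulated genes 1 was higher and 1 lower (none without day 38 replicate 1). Of 21 chemokine and NF-kB genes 4 were higher and 3 lower (2 and 2 without day 38 replicate 1), with *NFKBIZ* below both. Without any 1 library of days 31 or 38 the *NFKBIZ* call was lost (adjusted p up to 0.443). No metallothionein was called among the 6 of 11 tested, with the list at 38.8 and 26.0 CPM at day 38, 6.14 and 9.54 CPM at day 31, and 65.2 and 119 CPM at day 45. Of 12 epithelial markers, 2 were higher and 5 lower, *KRT18* and *CLDN4* among the lower. Without either day 38 library 2 were lower, without either day 31 library 3, and none was higher without day 38 replicate 1 or with library size alone. The list sum was 2210 and 1910 CPM, 2330 and 2470 CPM, and 2300 and 2370 CPM in the order day 38, day 31 and day 45.

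Immediate early genes, which respond within minutes to handling, were also followed. *FOS* was higher than the mean, at 1520 and 1400 CPM against 1230 and 1260 CPM at day 31 and 382 and 338 CPM at day 45, while *EGR1* was not called, at 2220 and 2030 CPM against 2720 and 2500 CPM and 1130 and 1030 CPM. Their list also held heat shock genes. Of its 14 genes tested, 1 was higher and 5 were lower (3 without day 38 replicate 1). The lower were *FOSB*, *FOSL1*, *ATF3* and the chaperone genes *DNAJB1* and *HSPH1*. No immediate early gene was below both, and *HSPH1*, described above among the chaperones, was the only member that was. Of 10 cardiovascular markers, 4 were higher than the mean (*ACTA2*, *MYH6*, *MYL7* and *DES*) and none was above both; the list summed to 231 and 230 CPM at day 38, 51.5 and 42.1 CPM at day 31, and 258 and 246 CPM at day 45. Airway basal and forebrain markers gave 1 higher member each, *KRT17* of 7 and *OTX2* of 9, endothelial markers 1 lower of 7, *KDR*, and blood markers 2 lower of 7, *CD14* and *CSF1R*. Without single day 38 libraries, edgeR calls were lost for *ACTA2* (adjusted p up to 0.0716), *MYL7* (0.134), *KDR* (0.184) and *CSF1R* (0.196), as were those of *BUB1* (0.104) and *LAMP3* (0.208) described above.

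The peak of the glycolysis and hypoxia list was seen under other scalings and without single libraries. Its count above both was 10 with DESeq2, with library size alone and with upper-quartile factors, and between 9 and 10 with any 1 of the 6 libraries left out. The day 38 libraries were also the deepest of the 6 by mean total count, and *RN7SK* took a larger share of them than of the day 31 libraries; the part of these in any result was not tested. Since the strand setting of the counting is not stated, genes that overlap another on the opposite strand are uncertain. Those described here include *ENO1*, *PGK1*, *TPI1*, *AHSA1*, *INHA*, *TNC*, *ASB15*, *TRIM72*, *BHLHE40*, *IGFBP5*, *TG* and *TSHR*. *PAX8* and *NKX2-1*, used to check the labelled identity, are also among them, as are *RAPGEF4*, *RUNX2*, *COL4A1* and *KRT18*. Reads of *HSPA8* can also come from small nucleolar RNA genes that lie within it on the same strand.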

How the data were processed

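The deposited files hold raw read counts per gene, 1 file per library. According to the study's methods and the submitters' processing notes, the authors trimmed paired reads of total-RNA libraries from low-input sorted cells with Trimmomatic, aligned them to GRCh38.p13 with HISAT2 and counted them with HTSeq; the strand setting is not given in the sources used here. Genes that reached 5 counts in 2 or more of the 10 libraries were fitted with edgeR 4.0.16 (R 4.3.3, TMM factors, quasi-likelihood test, 1 mean per day, 5 residual degrees of freedom, Benjamini-Hochberg adjustment, threshold 0.05). The call against both neighbours took the larger of the 2 p-values where both differences had the same sign, and 1 otherwise. CPM values are scaled by TMM, and 3 counts correspond to 0.307 to 0.435 CPM in the 6 libraries compared. Intervals and floors cover counting error only.

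The gene lists, motifs and members were chosen with earlier results of these data known. Named genes were the list members, plus, among genes called and averaging at least 5 CPM over the 6 libraries whose day 38 values lay outside all 4 neighbours, the 15 with the largest smaller step in each direction, and the 5 with the largest difference from the mean. Genes outside this rule are marked as chosen after their values were seen. Replicate libraries differed beyond sampling noise and none was merged. Positions and overlaps came from GENCODE 44, which matched 25755 of 28265 symbols. Steps were tested on simulated data. The alternatives were DESeq2 1.42.0, library size alone, upper-quartile factors, no low-count filter, filterByExpr, the 6 libraries alone, a replicate block, a log2 change of at least 1, and leaving out each of the 6 libraries. Some genes are not reported here. Cells kept on cAMP to later days are not analysed here.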

Additional observations from a re-analysis of the deposited data

How the results depend on the processing

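With 2 libraries a day, counts of calls depended on single libraries. Leaving out 1 library gave 565 to 1214 genes higher than the mean of the neighbours (main 1368), 306 to 725 lower (841), 87 to 123 above both (167) and 30 to 73 below both (92), and 1619 to 2162 higher and 1676 to 2130 lower at day 45 than at day 31. The fewest higher and above both came without day 38 replicate 1 (565 and 87), the fewest lower and below both without day 38 replicate 2 (306 and 30). Without day 31 replicate 1 or 2 there were 100 or 107 above both and 50 or 52 below both. Library size without TMM factors gave 838 higher, 1315 lower, 109 above both and 167 below both. Without a low-count filter 143 genes were below both. A log2 change of at least 1 left 538, 390, 78 and 54, and 1412 higher and 1318 lower at day 45 than at day 31. Of the 259 genes above or below both, 247 were called with DESeq2, 201 with library size alone and 117 to 191 with 1 library left out. The replicate block gave 147 genes below both and 223 above both, but the numbers do not pair the samples: deviations of same-numbered libraries correlated between −0.032 and 0.0199.

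For 173 single genes in 2249 comparisons with alternatives, 1890 kept direction and side of the threshold, 351 lost the call, 1 gained it and 7 changed sign. The sign changes were all in *PAX8*, which was not called in any setting: −0.0256 with DESeq2, −0.12 with library size alone, −0.046 with upper-quartile factors, −0.00953 with the 6 libraries, and between −0.0275 and 0.0486 with 1 library left out. The cause of these changes was not tested.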

Other observations

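Several regulators of gene expression and matrix turnover, chosen after their values were seen, were also called on the same side of both neighbours. *RUNX2*, a transcription factor of bone formation, was at 65.1 and 72.3 CPM at day 38, 16.3 and 15.7 CPM at day 31, and 23.4 and 24.2 CPM at day 45. Its call was lost without day 38 replicate 2 (edgeR adjusted p = 0.104). *COL4A1*, a basement membrane collagen that overlaps *COL4A2*, was at 374 and 382 CPM against 51.7 and 48.0 CPM before and 237 and 230 CPM after, a call also lost without day 38 replicate 2 (0.0636). *SPARC*, a collagen-binding matrix protein, was at 981 and 927 CPM against 482 and 466 CPM and 695 and 617 CPM, a call lost without day 38 replicate 1 or day 45 replicate 2 (adjusted p up to 0.137).

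*SFPQ*, an RNA-binding protein that like *NEAT1* was chosen after its values were seen, was below both. It was at 403 and 460 CPM at day 38 against 673 and 672 CPM and 709 and 796 CPM, a call lost without day 38 replicate 1 (edgeR adjusted p = 0.0859). *NEAT1*, the non-coding RNA on which paraspeckles, which hold this protein, are built, was above both, at 9460 and 12300 CPM against 4120 and 3630 CPM and 6910 and 8020 CPM. That call was lost without day 38 replicate 2 (0.435) or day 45 replicate 1 (0.135).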
